A study of Homo sapiens with 4 samples.

Results

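The HOX cluster genes were examined as 1 group, taken as every gene symbol made of HOX, a cluster letter from A to D and a number. The rule matched 39 of the 35979 symbols in the tables, and 38 are described: 10 in HOXA, 10 in HOXB, 9 in HOXC and 9 in HOXD, each present as a single row. Counts and sums below are over these 38. All libraries were made from NCI-H1048, an established human cell line from a small cell lung cancer of the tuft cell-like kind, in which the transcription factor POU2F3 is highly expressed. Both targets were compared with 1 control: COLCA2 gRNA (2 libraries, 1 for each of 2 guides, genotype labelled COLCA2 knockout), POU2F3 gRNA (1 library, labelled POU2F3 knockout) and non-targeting gRNA (1 library, labelled WT, called the control below). COLCA2 encodes a co-activator of POU2F3. All 4 libraries are poly(A) RNA of the same line with no further treatment listed. Guide sequences, the time after guide delivery and whether cells were clonal or pooled are not given in the sources used here.

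HOX genes encode homeodomain transcription factors that assign position along the body axis. They lie in 4 clusters, and genes with the same number in different clusters are paralogues derived from 1 ancestor. Within a cluster the genes stand in order from low numbers at the 3′ end, used in anterior tissue, to high numbers at the 5′ end, used in posterior and distal tissue. Adult tissues and the tumours derived from them often keep part of this code, the 3′ genes respond to retinoic acid, and Polycomb and trithorax complexes hold clusters silent or active.

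The homeobox, the coding stretch for the DNA-binding homeodomain, is shown for HOXA4 and HOXC4, because these paralogues had different ratios to the control and because near-identical paralogues could exchange reads. The capitals mark the codons of the motif WFQNRR in the recognition helix. The 180 bases are from GENCODE release 29 transcripts (GRCh38), written in the direction of transcription, and each lies in 1 coding exon.
HOXA4 (chr7:27129366-27129545, minus strand): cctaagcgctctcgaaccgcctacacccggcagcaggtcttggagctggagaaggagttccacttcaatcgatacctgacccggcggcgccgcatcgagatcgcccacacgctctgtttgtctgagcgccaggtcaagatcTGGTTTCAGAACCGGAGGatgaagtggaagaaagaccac
HOXC4 (chr12:54054876-54055055, plus strand): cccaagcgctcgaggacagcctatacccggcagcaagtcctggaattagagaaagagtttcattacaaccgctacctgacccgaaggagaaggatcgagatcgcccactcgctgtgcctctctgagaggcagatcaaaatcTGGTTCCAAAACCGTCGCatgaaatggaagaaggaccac
Over these 180 bases HOXA4 and HOXC4 shared 141 identical positions. Among the paralogue pairs compared, this number ran from 125 (HOXA13 and HOXB13) to 163 (HOXA3 and HOXB3), so the printed pair is not the closest. The longest exact run shared by transcripts of members in different clusters was 62 bases, between HOXB3 and HOXD3, and the next was 40 bases. Within clusters, annotated exons overlapped on the same strand between HOXC4 and HOXC6 (484 bases), HOXD10 and HOXD11 (452), HOXB3 and HOXB6 (433), HOXB3 and HOXB4 (159) and HOXC6 and HOXC9 (73). The division of reads between the genes of these pairs is uncertain. Antisense RNAs of the clusters are not analysed here, and the use of strand in the counting is not given in the sources used here.

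Values are the authors' normalized counts, in which a whole number of reads per gene was divided by 1 factor per library. Recovered totals were 21587741 to 29632382 reads per library, of which 9097 to 16919 fell on HOX genes. POU2F3 itself was at 14602 in the control, 3677 with COLCA2 gRNA 1, 2351 with gRNA 2 and 1449 with POU2F3 gRNA. COLCA2 was at 5585 in the control, 3119 with COLCA2 gRNA 1, 3541 with gRNA 2 and 1393 with POU2F3 gRNA, and a transcript level does not measure how many copies of a gene were disrupted. Of 8 tuft markers, POU2F3, SOX9, AVIL, GFI1B and BMX passed the expression minimum. All 5 were at least 2-fold lower in the 3 targeting libraries, and POU2F3 is itself a target. The 8 markers summed to 40238 in the control and 9491 to 13934 in the others, and most of each sum was POU2F3 and SOX9. TRPM5, CHAT and PTGS1 did not exceed 13.4 in any library. Of 4 neuroendocrine markers 2 passed the minimum. INSM1, a neuroendocrine transcription factor, was at 118 in the control, 23.8 with COLCA2 gRNA 1, 24.7 with gRNA 2 and 35.3 with POU2F3 gRNA, past 2-fold lower in all 3, as were HOXA2 to HOXA4 and HOXD13. SYP, a synaptic vesicle protein, was at 74.5 in the control and 48.2 to 60.1 in the others, and NEUROD1 and CHGA did not exceed 12.9. The 4 blood markers summed to 17.2 to 41.5 per library, with CD3E at 0 in all 4. The 4 basal or squamous markers summed to 281 in the control and to 1660.2, 3954 and 4579.5 with POU2F3 gRNA and COLCA2 gRNA 1 and 2, and 3 of them, KRT5, KRT14 and TP63, were higher with both targets. The 6 fibroblast markers summed to 5333 in the control and to 3489 to 4060 in the targeting libraries. Most of each sum was TWIST1, at 4114 in the control, 2396 with COLCA2 gRNA 1, 2249 with gRNA 2 and 2222 with POU2F3 gRNA. TWIST1 was the only fibroblast marker lower in all 3 targeting libraries. Of the 5 past the minimum 2, LUM and PDGFRB, were higher with both targets. For these marker counts, the shares of all genes past 2-fold in all 3 targeting libraries were 1.5% lower and 4.89% higher. The part of any shift in cell make-up in the HOX values was not tested. In bulk RNA, fewer cells that express a gene and less RNA per cell cannot be told apart.

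NCI-H1048 transcribed all 4 clusters. In the control, per kilobase of the longest annotated transcript, HOXC held 45.6% of the summed HOX level, HOXA 34.3%, HOXD 15.8% and HOXB 4.29%. The summed normalized counts, not scaled for length, were 7277, 5781, 2373 and 726 in that order. The expression minimum, a mean normalized count of 20 across libraries, was reached by 32 members: all 10 HOXA and all 9 HOXC genes, 7 of 9 HOXD genes and 6 of 10 HOXB genes. The 6 others were HOXB1, HOXB2, HOXB8, HOXB13, HOXD1 and HOXD12. HOXB1, a gene of the hindbrain, had 1 read in the control and 0 elsewhere, and a count of 0 allows up to 3 reads. HOXB8 and HOXB13 had 2 to 8 reads per library, HOXB2 had 8 to 14 and HOXD1 had 3 to 20.

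**Figure D1:**
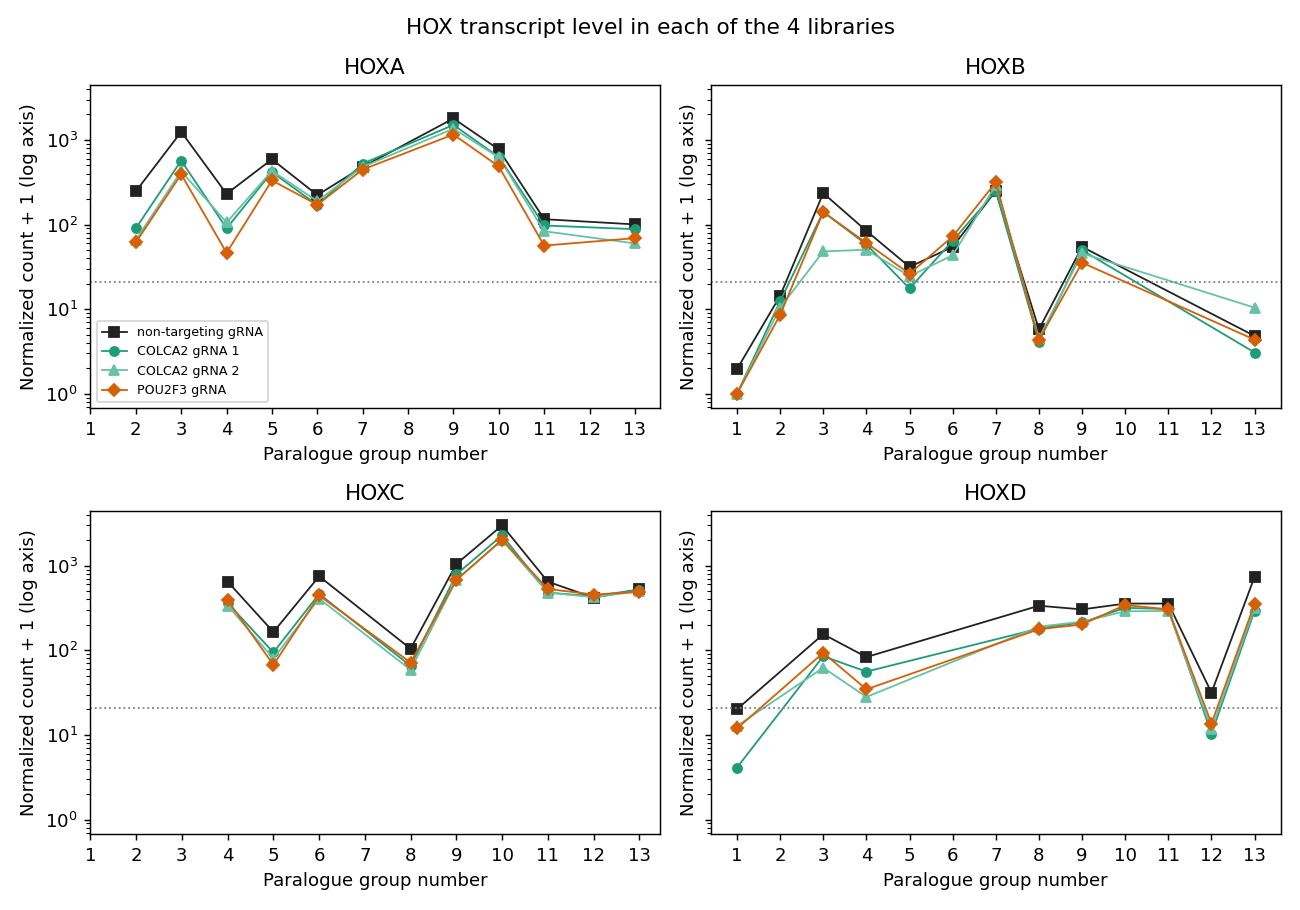
Normalized count plus 1 (log axis) against paralogue group number for the 4 clusters, with 1 line per library and a dotted line at the expression minimum of a mean of 20. HOXB1 has a count at or near 0 in all 4 libraries and so lies at or near 1 on this axis. The control lies above the others for 28 of the 32 members past the minimum, HOXA2 to HOXA4 among them.

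On the scale per kilobase, HOXC10, a posterior gene of limb and trunk, was highest in the control at 1543 per kb, followed by HOXA9, a regulator of blood progenitors and leukaemia, at 869 and HOXC9 at 688. HOXC4 (387), HOXA3 (366), HOXA5 (356), HOXD13 (330) and HOXA10 (303) came next. With 1 library, the order of these close neighbours has no replicate check. The highest HOXB gene was HOXB7 at 181 per kb.

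Relative to the non-targeting library, the HOX genes were mostly lower in all 3 targeting libraries. The summed HOX count was 72.4% and 66.2% of the control level for COLCA2 gRNA 1 and 2 and 65.2% for POU2F3 gRNA, with 95% exact (Clopper-Pearson) intervals of 70.6% to 74.1%, 64.5% to 67.9% and 63.7% to 66.7%. These intervals and those given later reflect counting error alone, and with no molecular identifiers named in the protocols, reads are not counts of separate molecules. Among the 32 members past the minimum, 28 were below the control in all 3 libraries, against 35.3% of the 14940 genes past it. The exceptions were HOXA7, HOXB6, HOXB7 and HOXC12, of which HOXC12 alone was above it in all 3 (34.4% of all genes). The counting interval lay below 0 in all 3 libraries for 20 members, against 19.0% of all genes, and above 0 in all 3 for none, against 20.3%. The median log2 ratio of the 32 was -0.47, -0.53 and -0.62 with COLCA2 gRNA 1, COLCA2 gRNA 2 and POU2F3 gRNA, where the medians of all 14940 genes were -0.0052, -0.0017 and -0.0037. All 3 ratios have the same single non-targeting library as control, so a high value there lowers all 3 at once, and neither the control nor the POU2F3 library has a replicate check.

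**Figure D2:**
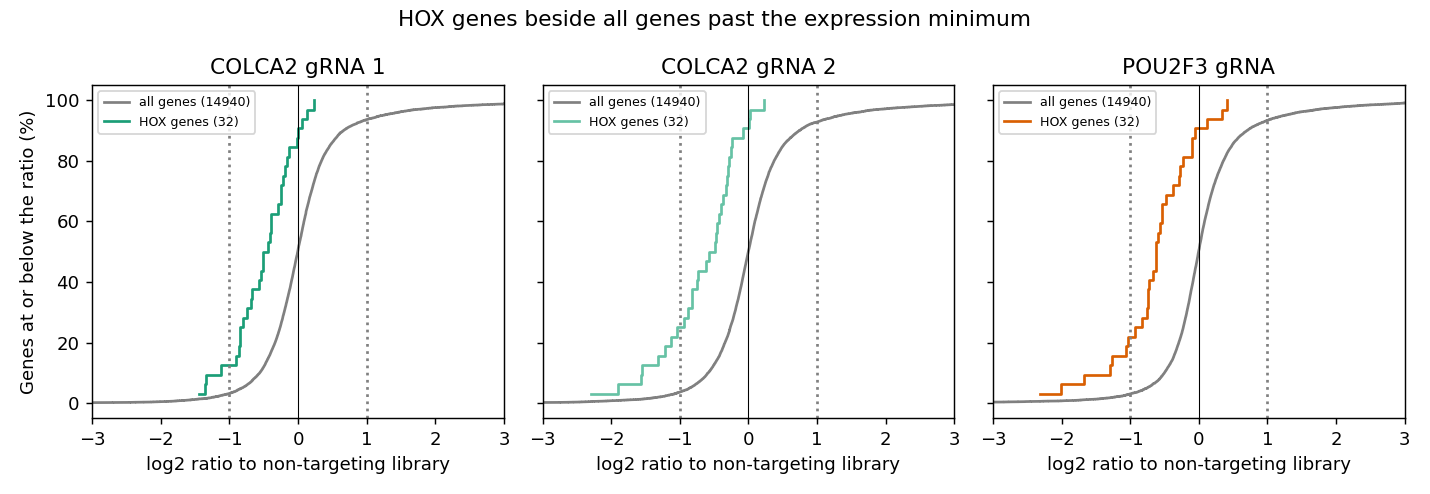
Cumulative share of genes (%) against the log2 ratio to the non-targeting library, for the 32 HOX genes and all 14940 genes past the minimum, in 1 panel per targeting library. Dotted lines mark 2-fold. From the lowest HOX gene upward, the HOX curve lies left of the curve of all genes in each panel, with medians of -0.47, -0.53 and -0.62.

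Ratios are given as log2((normalized count + 1) of a library over that of the non-targeting library), and a gene was called when it was at least 2-fold apart, without a test. With POU2F3 gRNA 7 of 32 members were lower, against 3.05% of all genes, and 0 were higher, against 6.73%. The 7 were HOXA2, HOXA3, HOXA4, HOXA11, HOXC5, HOXD4 and HOXD13. With both COLCA2 guides 4 were lower (2.02% of all genes) and 0 higher (5.79%), namely HOXA2, HOXA3, HOXA4 and HOXD13. The same 4 were lower in all 3 libraries (1.5% of all genes) and 0 were higher in all 3 (4.89%). Over all 38 members with no expression minimum, 8, 5 and 5 were lower with POU2F3 gRNA, COLCA2 gRNA and all 3 guides, against 4.56%, 2.86% and 1.92% of all 35979 symbols, and the added member was HOXD12. Past the minimum, COLCA2 gRNA 2 alone gave 8 and COLCA2 gRNA 1 alone gave 4. The share of all genes for a single guide, a looser rule than both guides, was not computed. At 1.5-fold, 18, 11 and 10 members were lower in the same comparisons (7.69%, 6.03% and 4.0% of all genes) and 0 were higher (12.2%, 9.71% and 8.14%).

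Both count models, edgeR and DESeq2, were run on recovered reads as alternatives, with the spread taken from the COLCA2 pair alone. The quasi-likelihood test of edgeR called 10 members lower for POU2F3 (3.98% of all genes), 9 for COLCA2 (7.51%) and 7 for both (3.23%). The edgeR calls beyond those in HOXC were HOXA2, HOXA3, HOXA4 and HOXD13 for both targets, HOXA5, HOXA9 and HOXA10 for POU2F3 and HOXD8 for COLCA2. It called 0 members higher (8.45%, 11.4% and 7.33% of all genes). DESeq2 called 6, 6 and 4 lower (2.69%, 4.18% and 2.03%) and 0 higher (6.15%, 8.33% and 5.54%), and HOXA4 was not among its COLCA2 calls. At an unadjusted edgeR p under 0.05 there were 15 members for POU2F3 and 17 for COLCA2, all of them lower and none higher. The shares of all genes, both directions together, were 26.6% and 32.8%. HOXA2, HOXA3 and HOXD13 were called under the 2-fold rule and by both tools for both targets.

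**Figure D3:**
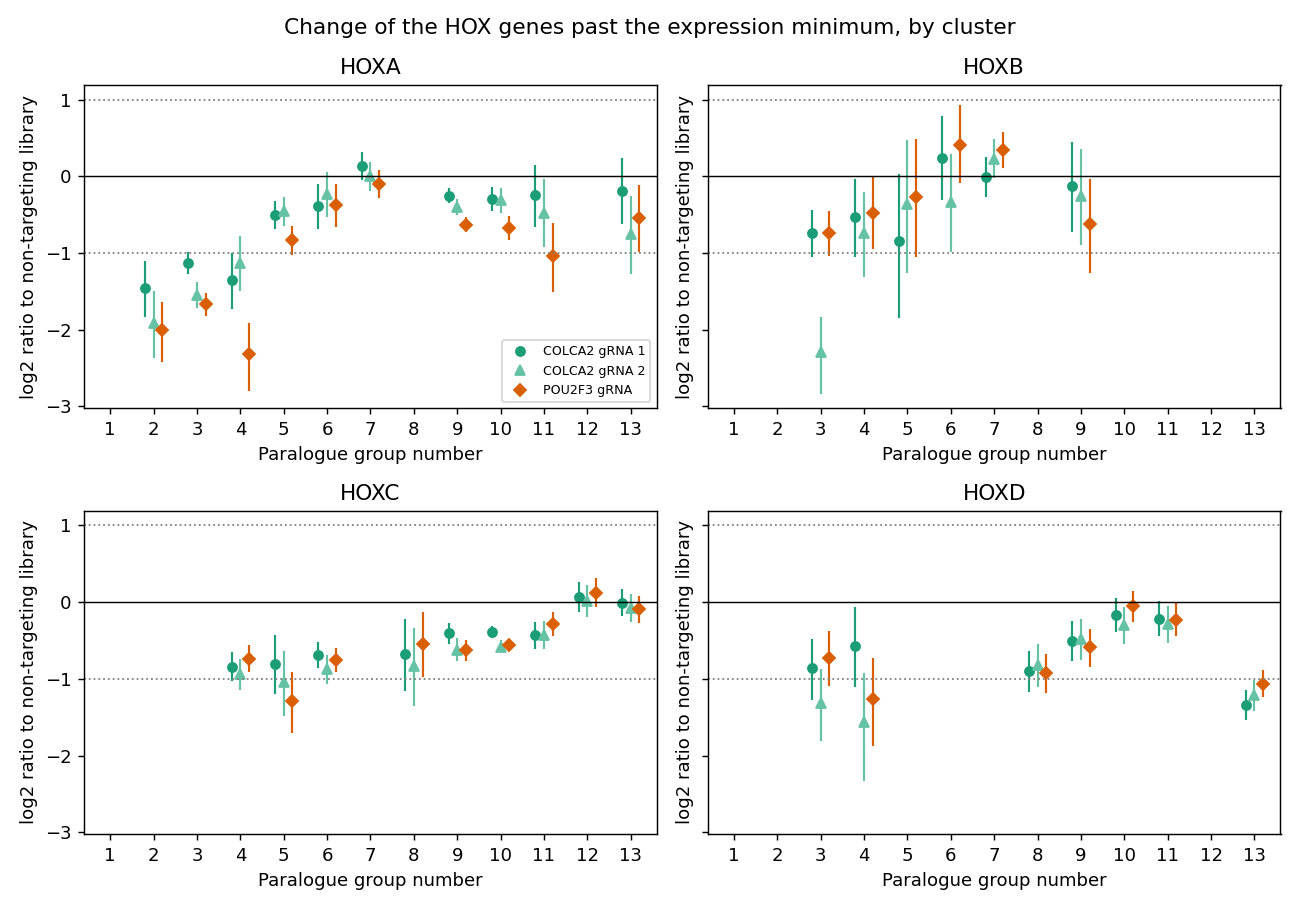
Log2 ratio to the non-targeting library against paralogue group number, in 1 panel per cluster, for the 32 members past the minimum. Points are libraries, vertical lines are 95% counting intervals of the read ratio and dotted lines mark 2-fold. The points of HOXA2 to HOXA4 lie below the lower dotted line in all 3 libraries, those of HOXA5 to HOXA10 above it, and those of HOXC12 and HOXC13 near 0.

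Of the 4 members called in all 3 libraries, 3 lie toward the 3′ end of HOXA, on chromosome 7 (GRCh38, minus strand). HOXA2, which patterns the hindbrain and second pharyngeal arch, lies at 27100354 to 27102811, with normalized counts of 245 in the control, 89.2 with COLCA2 gRNA 1, 64.7 with gRNA 2 and 60.4 with POU2F3 gRNA. The control was more than 2-fold above all 3 targeting libraries, with log2 ratios of -1.45, -1.91 and -2.00 in COLCA2 gRNA 1, COLCA2 gRNA 2 and POU2F3 gRNA.

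HOXA3, needed for thymus and parathyroid, spans 27106184 to 27152581 through 7 annotated transcripts. It stood at 1244 in the control, 568 with COLCA2 gRNA 1, 426 with gRNA 2 and 391 with POU2F3 gRNA. HOXA3 had the most reads of this block, 362 to 1303 per library, and its ratio was -1.34 ± 0.29 (SD, n = 2) for the COLCA2 guides and -1.67 for POU2F3 gRNA. HOXA4, at 27128507 to 27130799 inside the span of HOXA3, stood at 229 in the control, 89.2 with COLCA2 gRNA 1, 105 with gRNA 2 and 45.3 with POU2F3 gRNA. Its ratio was -1.24 ± 0.16 with the COLCA2 guides (SD, n = 2) and -2.31 with POU2F3 gRNA, the lowest ratio of any member past the minimum in that library. The interval of HOXA4 with POU2F3 gRNA was -2.79 to -1.91, from 54 reads against 240.

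Further along the cluster the differences were smaller. HOXA5, which acts in lung development, was at 589 in the control, 415 with COLCA2 gRNA 1, 429 with gRNA 2 and 331 with POU2F3 gRNA, with ratios of -0.51, -0.46 and -0.83. HOXA6 had normalized counts of 222, 169, 188 and 170.4 in the same order, and HOXA7 had 478, 524, 479 and 446. The ratios of HOXA6 were -0.39, -0.23 and -0.38 and those of HOXA7 0.13, 0.0007 and -0.10. HOXA5 was lower in each targeting library beyond counting error, for HOXA6 the interval with COLCA2 gRNA 2 (-0.54 to 0.06) held 0, and for HOXA7 the interval held 0 in every library.

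At the 5′ end, HOXA9 was at 1789.5 in the control, 1501 with COLCA2 gRNA 1, 1356 with gRNA 2 and 1157 with POU2F3 gRNA, with ratios of -0.25, -0.40 and -0.63. HOXA10, known from the uterus and blood progenitors, was at 769.7, 627, 619.8 and 484 in the same order, with ratios of -0.29, -0.31 and -0.67. Both genes were lowest with POU2F3 gRNA. HOXA11 (115, 96.4, 82.3 and 55.4) and HOXA13 (99.3, 87.1, 58.8 and 68.0), genes of the distal limb and urogenital tract, had 50 to 120 reads per library. The ratios of HOXA13 were -0.19, -0.75 and -0.54. HOXA11 was past 2-fold with POU2F3 gRNA and not with the COLCA2 guides, at -1.04 (interval -1.50 to -0.60) beside -0.25 and -0.47. Over the 10 HOXA genes Spearman's rho of the ratio with paralogue number was 0.85, 0.47 and 0.56 in COLCA2 gRNA 1, COLCA2 gRNA 2 and POU2F3 gRNA, a description of genes that share 1 control library.

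In HOXC the ratios also became smaller in size with paralogue number. Of its 9 members, 0 were past 2-fold with both COLCA2 guides, where 2.02% of all genes were lower and 5.79% higher. A count of 0 of 9 is near that background. HOXC5 alone was past 2-fold with POU2F3 gRNA, where 3.05% of all genes were lower and 6.73% higher. The count models called other members: edgeR called HOXC4, HOXC6 and HOXC10 for both targets and HOXC9 for COLCA2, DESeq2 called HOXC10 for both targets and HOXC4 and HOXC6 for COLCA2, and neither called HOXC5. HOXC4 was at 646 in the control, 359.8 with COLCA2 gRNA 1, 336 with gRNA 2 and 387 with POU2F3 gRNA, and HOXC6, a gene of the thoracic region, at 748, 462, 407 and 443 in the same order. The ratios of HOXC4 were -0.84, -0.94 and -0.74. Those of HOXC6 were -0.69, -0.88 and -0.75, and both sets are uncertain because of the shared exon. HOXC5 was at 163, 93.3, 78.8 and 66.3, with ratios of -0.80, -1.04 and -1.29, so that COLCA2 gRNA 2 and POU2F3 gRNA lay past 2-fold and COLCA2 gRNA 1 did not. HOXC8 (103, 64.3, 57.6 and 70.5) had 49 to 108 reads and ratios of -0.67, -0.83 and -0.54.

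HOXC9 had normalized counts of 1044 in the control, 787 with COLCA2 gRNA 1, 679 with gRNA 2 and 675 with POU2F3 gRNA. HOXC10, the most abundant member, had 2988, 2278, 1999 and 2024 in the same order, HOXC11 646, 478, 479.8 and 529. In these 3 genes every targeting library lay below the control, with ratios between -0.63 and -0.29. HOXC12 (417, 435, 422 and 455) and HOXC13 (522, 519, 496 and 488), the latter a regulator of hair and nail keratins, had log2 ratios between -0.10 and 0.12. The mean COLCA2 ratio of HOXC12 was 0.039 and turned to -0.030 when libraries were scaled to equal totals. Spearman's rho of the ratio with paralogue number over the 9 HOXC genes was 0.93, 0.97 and 0.88 in COLCA2 gRNA 1, COLCA2 gRNA 2 and POU2F3 gRNA.

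In HOXD the member called in all 3 libraries stood at the opposite, 5′ end. HOXD13, which shapes digits, lies on chromosome 2 at 176092891 to 176095938 (plus strand) and was at 739 in the control, 292 with COLCA2 gRNA 1, 319 with gRNA 2 and 353 with POU2F3 gRNA. All 3 targeting libraries lay below the 1 control library, as did 35.3% of all genes at any size of ratio. The ratios of HOXD13 were -1.34, -1.21 and -1.06, with intervals of -1.54 to -1.14, -1.42 to -1.01 and -1.24 to -0.89. Its neighbour HOXD12 was under the minimum, with 32 reads in the control and 9, 9 and 15 in COLCA2 gRNA 1, COLCA2 gRNA 2 and POU2F3 gRNA, ratios of -1.61, -1.45 and -1.22. HOXD11 (355, 306, 290.5 and 303) and HOXD10 (355, 316, 288 and 342), next along the cluster and themselves sharing an exon, had ratios between -0.30 and -0.056.

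From HOXD9 toward the 3′ end the ratios were lower again. HOXD9 was at 303 in the control, 213 with COLCA2 gRNA 1, 216 with gRNA 2 and 201 with POU2F3 gRNA, and HOXD8 at 335, 179, 189 and 176 in the same order, both below the control in every targeting library. The ratios of HOXD8 were -0.90, -0.82 and -0.92 and those of HOXD9 -0.51, -0.48 and -0.59. HOXD4 was at 82.1, 54.9, 27.0 and 33.6 and HOXD3 at 154, 84.0, 61.2 and 92.3. HOXD3 had ratios of -0.86, -1.32 and -0.73. HOXD4 passed 2-fold with POU2F3 gRNA (-1.27) and COLCA2 gRNA 2 (-1.57) but not with COLCA2 gRNA 1 (-0.57), on 23 to 86 reads. Spearman's rho over the 7 HOXD genes was 0.11, 0.61 and 0.29. Set side by side, the paralogue group 4 genes, of which the homeoboxes of HOXA4 and HOXC4 are printed above, had POU2F3 gRNA ratios of -2.31 (HOXA4), -0.47 (HOXB4), -0.74 (HOXC4) and -1.27 (HOXD4).

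None of the 6 HOXB members past the minimum was called for either target. With COLCA2 and POU2F3 gRNA 2.02% and 3.05% of all genes were lower and 5.79% and 6.73% higher, so 0 of 6 is near the background. HOXB3 stood at 234 in the control, 140.0 with COLCA2 gRNA 1, 47.0 with gRNA 2 and 139 with POU2F3 gRNA. COLCA2 gRNA 2 stood apart at a ratio of -2.29, while COLCA2 gRNA 1 and POU2F3 gRNA were both at -0.74. HOXB3 was the 1 member past the minimum that was at least 2-fold higher with gRNA 1 than with gRNA 2, against 1.05% of all genes, and 0 members were higher with gRNA 2, against 1.16%. HOXB4, a gene of blood stem cell growth, was at 83.1, 57.0, 49.4 and 59.6 in the order above, with ratios of -0.54, -0.74 and -0.47. Spearman's rho with paralogue number over the 6 HOXB genes past the minimum was 0.60, 0.94 and 0.37 in COLCA2 gRNA 1, COLCA2 gRNA 2 and POU2F3 gRNA.

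HOXB5 (30.6, 16.6, 23.5 and 25.2), HOXB6 (53.5, 63.2, 42.3 and 71.3) and HOXB9 (53.5, 48.7, 44.7 and 34.4) had 16 to 85 reads per library, and the COLCA2 intervals of all 3 held 0. With POU2F3 gRNA their ratios were -0.27, 0.41 and -0.62. The POU2F3 gRNA interval held 0 for HOXB5 and HOXB6 and was -1.25 to -0.029 for HOXB9. HOXB7 was at 248 in the control, 247 with COLCA2 gRNA 1, 292 with gRNA 2 and 314 with POU2F3 gRNA. Its interval with POU2F3 gRNA was 0.11 to 0.57. HOXB7 was the 1 member past the minimum with an interval above 0 in any targeting library. The share of all genes under that rule was not computed. The direction with the COLCA2 guides was not fixed, with ratios of -0.0089 and 0.23 for HOXB7 and 0.24 and -0.33 for HOXB6.

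As a cluster, HOXA was lower in the 1 POU2F3 gRNA library than with either COLCA2 guide. Its summed count with POU2F3 gRNA was 55.5% of the control (interval 53.3% to 57.8%). With COLCA2 gRNA 1 and 2 it was 72.1% (69.2% to 75.0%) and 65.9% (63.1% to 68.8%). The intervals of the 2 guides do not overlap, so libraries of the same target differed by more than counting error. No background was computed for cluster sums. The corresponding HOXC values were 70.6%, 75.3% and 68.1%, the HOXD values 64.2%, 61.4% and 59.6%, and the HOXB values 90.7%, 81.1% and 71.8%. A direct ratio leaves the control library out. HOXA with POU2F3 gRNA was 77.0% of COLCA2 gRNA 1 (73.7% to 80.5%) and 84.2% of COLCA2 gRNA 2 (80.4% to 88.3%). For HOXC it was 93.8% (90.4% to 97.4%) and 104% (99.7% to 108%), and for HOXD 105% (97.5% to 112%) and 108% (100.2% to 116%). HOXB, at the fewest reads, was at 112% (100.2% to 125%) and 126% (112% to 142%).

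**Figure D4:**
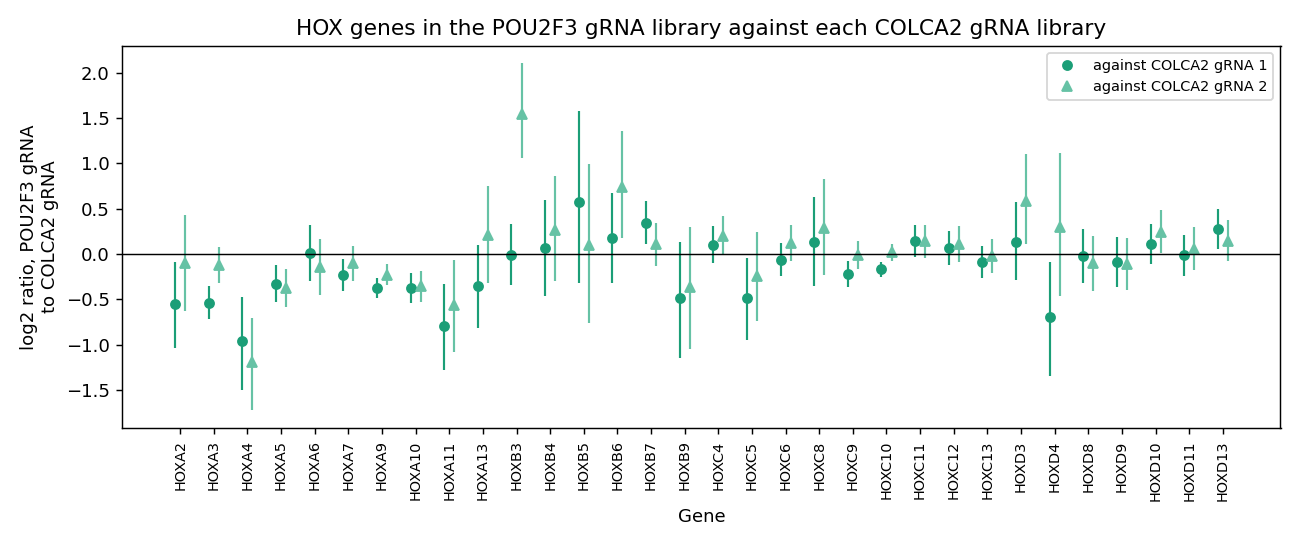
Log2 ratio of the POU2F3 gRNA library to each COLCA2 gRNA library for the 32 members past the minimum, with 95% counting intervals as vertical lines. HOXA4 lies lowest against both guides, at -0.96 and -1.19, and HOXB3 is highest against COLCA2 gRNA 2, at 1.55.

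Gene by gene, no member was at least 2-fold apart from both guides (0.924% of all genes were lower and 0.442% higher). At 1.5-fold HOXA4 was the 1 lower member (2.50%) and 0 were higher (1.92%). HOXA4 came nearest, at -0.96 against COLCA2 gRNA 1 (-1.49 to -0.47) and -1.19 against COLCA2 gRNA 2 (-1.72 to -0.70). The interval lay below 0 against both guides for 5 members, HOXA4, HOXA5, HOXA9, HOXA10 and HOXA11. The share of all genes was 17.6%, so 5 of 32 is near the background, and no member lay above 0 against both (14.5%). edgeR called 0 members in this contrast (0.234% of all genes lower and 0.107% higher), and DESeq2 called 0 (0.622% and 0.335%). At an unadjusted edgeR p under 0.05 there were 3 members, HOXA4, HOXA9 and HOXA10, all of them lower. Among all 14940 genes there were 2038, both directions together, so 3 of 32 is not above the background.

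The genes beside the clusters were compared to see how far each pattern extended. SKAP2, an adaptor protein gene that lies at 26667062 to 26995239 on chromosome 7, 105114 bases beyond HOXA2, was at 5143 in the control, 2215 with COLCA2 gRNA 1, 2135 with gRNA 2 and 1509 with POU2F3 gRNA. Its ratios of -1.22, -1.27 and -1.77 put it past 2-fold in all 3 libraries (1.5% of all genes), as with HOXA2, HOXA3 and HOXA4. SNX10 on the same side, farther out, had ratios of -0.40, -0.15 and -0.64, and HIBADH, beyond HOXA13, had 0.24, 0.36 and 0.27. TAX1BP1, farther out past HIBADH, had 0.17, 0.17 and 0.21. None of the flanking genes past the minimum at the other clusters was called. These were CALCOCO2 beside HOXB, CALCOCO1, SMUG1, CBX5, HNRNPA1 and ATP5MC2 beside HOXC, and LNPK and MTX2 beside HOXD. With COLCA2 and POU2F3 gRNA 2.02% and 3.05% of all genes were lower and 5.79% and 6.73% higher. No call among so few genes is near this background and does not show where a pattern ends. MTX2 and LNPK, on the 2 sides of HOXD, had POU2F3 gRNA ratios of -0.23 and 0.041. EVX2, next to HOXD13, and EVX1, next to HOXA13, had at most 2 reads in any library.

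**Figure D5:**
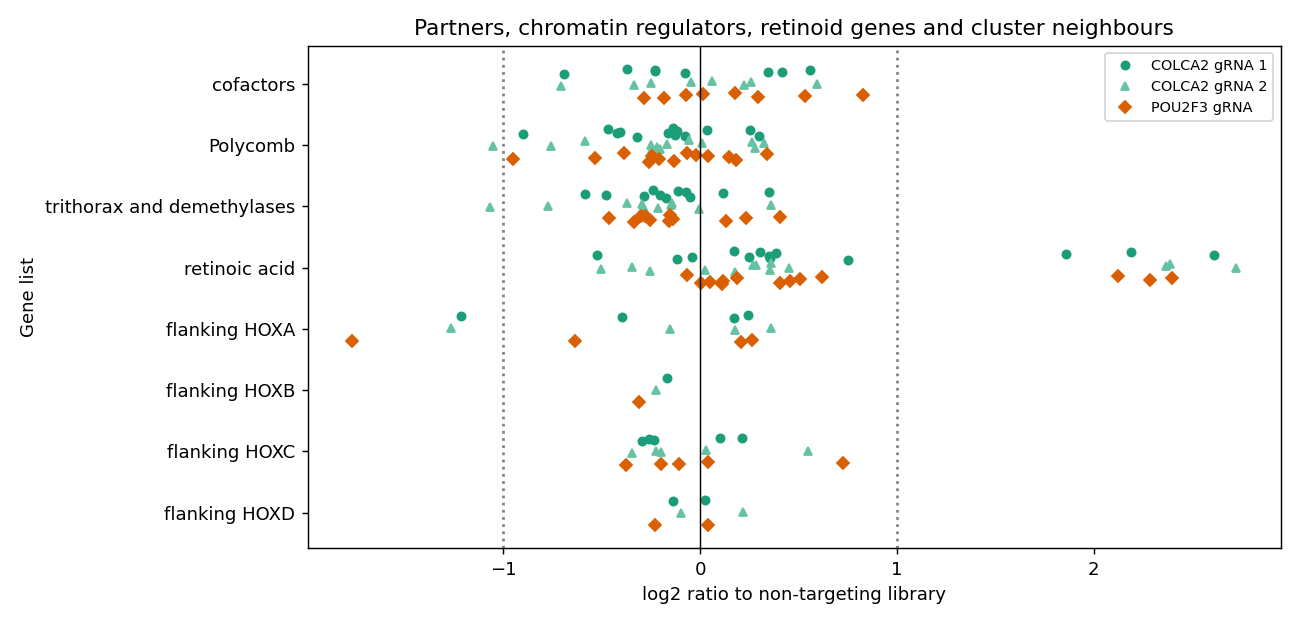
Log2 ratio to the non-targeting library of each gene past the minimum in 8 fixed lists, with 1 marker per library and dotted lines at 2-fold. SKAP2 lies past the lower dotted line among the HOXA neighbours in all 3 libraries, and CYP26A1, ALDH1A3 and DHRS3 lie past the upper line among the retinoic acid genes.

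HOX proteins bind DNA with partners of the PBX, MEIS and PKNOX families, and the 8 partner genes examined all passed the minimum. None was past 2-fold with COLCA2 or POU2F3 gRNA, where 2.02% and 3.05% of all genes were lower and 5.79% and 6.73% higher, so a count of 0 of 8 is near the background. PBX2, with the most reads of these, had ratios of -0.23, -0.25 and -0.073. PKNOX1 had ratios of -0.076, -0.34 and -0.29 and PBX3 had 0.34, 0.59 and 0.53. The medians of the 8 ratios were -0.15, 0.0068 and 0.094 in COLCA2 gRNA 1, COLCA2 gRNA 2 and POU2F3 gRNA.

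The chromatin regulators of the clusters were all detected, and 0 of 13 Polycomb and 0 of 11 trithorax and demethylase genes were past 2-fold for either target, which at the same shares of all genes is also near the background. The Polycomb median was -0.14, -0.20 and -0.13 in the same order, and SUZ12, CBX2 and PCGF2, the members with the most reads, had POU2F3 gRNA ratios of -0.26, -0.39 and -0.21. KMT2A, the methyltransferase that keeps HOX genes active, was at 6254 in the control, 4173 with COLCA2 gRNA 1, 3655 with gRNA 2 and 4531 with POU2F3 gRNA, ratios of -0.58, -0.77 and -0.46. JARID2, a subunit that recruits Polycomb repressive complexes and was picked out after its values were seen, had ratios of -0.90, -1.05 and -0.95. PSIP1 and DOT1L, partners of KMT2A or its fusions, had POU2F3 gRNA ratios of -0.16 and -0.28.

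Of 14 retinoic acid genes 13 passed the minimum, and 3 were higher with both targets (4.89% of all genes) while 0 were lower (1.5%). DHRS3, a retinaldehyde reductase, was at 309 in the control, 1895 with COLCA2 gRNA 1, 2049.8 with gRNA 2 and 1512 with POU2F3 gRNA. ALDH1A3, which makes retinoic acid, was at 269, 1233, 1411 and 1175 in the same order, and CYP26A1, which degrades it, at 12.4, 47.7, 68.2 and 69.7. Each of the 3 was higher in every targeting library, with CYP26A1 on 13 reads in the control. ALDH1A1, with the most reads of the list, had ratios of 0.17, 0.36 and -0.068. The receptors RXRA and RXRB had POU2F3 gRNA ratios of 0.41 and 0.0036. Of the CDX, EVX and ParaHox genes 2 of 8 passed the minimum. CDX2, an intestinal regulator of HOX genes, was at 423, 356, 248 and 283, and PDX1, a pancreatic regulator, at 278, 144, 129 and 87.3 in the same order. PDX1 was called lower with POU2F3 gRNA, with ratios of -0.94, -1.10 and -1.66, and CDX1, CDX4 and GSX1 had 0 reads in all 4 libraries. Whether any of these genes has a part in the HOX values was not tested.

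The RefSeq promoter table (GRCh38.p14) held windows of 300 bases for 20 of the 38 members, 26 distinct windows in all, of which 1 is shared by HOXC4 and HOXC5. The octamer ATGCAAAT, the motif that POU2F proteins bind, was searched on both strands and occurred in 2 of the 26 windows, beside 1.77% of all 34943 distinct windows. One was 1 of the 7 HOXA3 windows and the other 1 of the 2 HOXA10 windows. The 30 bases around each match are printed on the strand of transcription, with the octamer, here in reverse orientation, in capitals.
HOXA3 (chr7:27151047-27151076, minus strand): taaagcggcgcATTTGCATcctaggtccgc
HOXA10 (chr7:27180082-27180111, minus strand): gccaATTTGCATatttggaatgcgccgcta
Counted from the annotated start at 0, the octamer begins at position -115 in that HOXA3 window and at -246 in that HOXA10 window. HOXA2, HOXA4 and HOXD13 have no match in their windows. The median ratio of observed to expected CpG was 0.85 in the HOX windows and 0.58 in all windows, at a GC content of 58.0% and 58.7%. Of HOXB the windows cover HOXB1 alone, and of HOXC only the window shared by HOXC4 and HOXC5. The HOX medians therefore describe mainly HOXA and HOXD.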

How the data were processed

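Poly(A) RNA of 4 NCI-H1048 libraries was measured by sequencing, with TRIzol extraction and NEBNext libraries per the labels' protocols. Salmon, DESeq2 and hg38 are named in the submitters' processing notes; versions, annotation and filters are not given in the sources used here. The deposited values are a linear signal per gene, named normalized count per the file headers. In each library 100% of values were whole multiples of 1 step (tolerance 0.001 reads), so reads were recovered by dividing by the step; Salmon estimates may have been rounded first.

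Rows of 1 symbol were summed. Genes with a mean of at least 20 were kept (14940), log2 ratios used a pseudocount of 1, and a call needed a 2-fold difference, with both guides for COLCA2. With 1 library in 2 of the 3 groups no test was the main result. Ratios of reads have 95% exact (Clopper-Pearson) intervals. p-values adjusted by Benjamini-Hochberg came from edgeR 4.0.16 and DESeq2 1.42.0 on recovered reads (3 groups, 1 residual degree of freedom, from the COLCA2 pair) and were used at 0.05 as alternatives. They compare libraries, and nothing says that the COLCA2 libraries came from separate cultures.

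Positions, lengths and homeoboxes come from GENCODE release 29 (38 of 38 identifiers matched). Values per library are given for members past the minimum and for a member called without it that reached 20 in a library; of each fixed list of related genes, members past the minimum that were called for both targets or are among the 3 most abundant are named; of the marker lists, those called for both targets are named, and others were named after their values were seen. The members and lists were chosen with earlier results of these data known. Homeodomain proteins and HOX antisense RNAs are not analysed here, and 1 HOX gene and some list genes are not reported here. Scripts were tested on simulated data.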

Additional observations from a re-analysis of the deposited data

How the results depend on the processing

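No paired analysis was possible because the POU2F3 and control groups hold a single library each. Under a 1.5-fold threshold 18 members were lower with POU2F3 gRNA, 11 with COLCA2 gRNA, 10 with all 3 targeting guides and 1, HOXA4, against both COLCA2 guides; at 4-fold the first 3 counts were 2, 0 and 0. These counts move by construction with the threshold. Leaving out each COLCA2 guide gave 4 to 8 members lower for COLCA2, 4 to 6 for all 3 guides, and 0 to 1 lower and 0 to 1 higher in the direct comparison; without gRNA 1, HOXB3, HOXC5, HOXD3 and HOXD4 joined the COLCA2 members and HOXA4 and HOXB3 were the direct ones. The mean of the COLCA2 guides gave 7 for COLCA2 and 1, HOXA4, in the direct comparison. Shares of all genes were not computed for the 4-fold, single-guide and guide-mean counts, so those counts have no background beside them. edgeR gave 9 for COLCA2 and 7 for both targets; the cause was not tested. The other pseudocounts, expression minimums, scalings, per-row values and DESeq2 kept each count within 1.5 times. No called member changed sign. Equal totals put the all-gene medians at -0.079, -0.065 and -0.038, turned the mean COLCA2 ratios of HOXA7 (to -0.0037) and HOXC12, neither of them called, and left 28 of 32 members below the control in all 3 libraries. Without COLCA2 gRNA 2 the ratios of HOXB6 and HOXB7 changed sign. Depth limited the low members most: HOXB5, with 16 to 32 reads, had a COLCA2 gRNA 1 interval of -1.85 to 0.03.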
